A study of Mus musculus with 4 samples.

Results

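The sestrins Sesn1, Sesn2 and Sesn3, the stress-response gene Ddit4 and the antiproliferative genes Btg1, Btg2, Btg3, Tob1 and Tob2 were examined in RNA sequencing of mouse fetal liver. These 9 genes, of 22011 in the deposited gene tables, were taken by symbol, each as its RefSeq transcript with most reads over the 4 libraries. They were chosen as genes that restrain growth, some lower and some higher in the knockout, so the knockout and wild-type levels themselves took part in the choice. Their differences between genotypes are therefore given as descriptions, without a test.

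The study compared 2 mice labelled wild type (WT, n = 2) with 2 labelled hnRNP L -/- (KO, n = 2), to find what changes without hnRNP L, a splicing regulator that binds RNA. The labels list the mouse lines kept for the work, among them C57BL/6 and a LckCre transgenic line, but the sources used here do not give the strain of these fetuses, the embryonic day, the kind of deletion or any Cre driver. Libraries were made from total RNA depleted of ribosomal RNA, and each held 70020061 to 111324295 mapped reads. Nothing says that the mice came from separate litters, so the error measures the spread between these samples only. The targeted gene Hnrnpl was at 460 and 603 CPM in WT (reads scaled to library size, with TMM scaling) and at 280 and 269 CPM in KO, so transcript remained in the libraries labelled KO (edgeR quasi-likelihood test, adjusted p = 0.0115). KO replicate 2 had 336 reads of Xist and 2839 of the Y-linked Ddx3y, against 31498 to 51618 and 5 to 14 in the other 3 libraries, so 1 library was from a male.

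Growth of a cell is set in large part by mTORC1, a kinase complex that drives protein synthesis when amino acids and growth factors are present. Sestrins bind the GATOR2 complex and keep amino acid signals from reaching mTORC1, while the Ddit4 protein, also called REDD1, acts through the TSC complex. The BTG and TOB proteins share an N-terminal domain that binds the deadenylase subunits of CCR4-NOT, the main complex that shortens poly(A) tails, and they slow cell division. Sesn1, Sesn2 and Btg2 are known p53 targets, Ddit4 answers to hypoxia, glucocorticoids and amino acid stress, Sesn3 and Btg1 to FOXO factors, and Btg2 is an early-response gene. Before birth the liver makes most of the blood, and red cell precursors make up much of it.

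The table of promoters from RefSeq (GRCm38.p6, 250 bases before to 50 after a start site) matched all 9 genes, with 11 windows in all. The matches below are shown because each is, in a member's window, a motif of a regulator or response named above or, for Btg2, the cAMP response element found in many early-response genes. Capitals mark the match, which lies upstream of the start site, and each run reads 5′ to 3′ along the strand of the gene.
Btg2 (chr1:134079294-134079341, minus strand): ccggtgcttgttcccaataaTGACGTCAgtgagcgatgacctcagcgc
Btg1 (chr10:96616777-96616823, plus strand): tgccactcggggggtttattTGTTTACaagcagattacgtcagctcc
Ddit4 (chr10:59951933-59951977, minus strand): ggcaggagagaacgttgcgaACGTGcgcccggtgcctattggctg
Sesn1 (chr10:41887246-41887295, plus strand): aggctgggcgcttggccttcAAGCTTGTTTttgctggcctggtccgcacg

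Motifs were searched on both strands of all 32851 windows. The full cAMP response element TGACGTCA was in the Btg2 window alone among the members and in 1.79% of all windows, and it contains the shorter element TGACG, which was in windows of Btg1, Btg2, Sesn1 and Tob1 and in 20.8% of all. The FOXO motif TGTTTAC was in the Btg1 window and, downstream of a start site, in a Sesn1 window, against 3.65% of all windows. The core of the hypoxia response element, ACGTG, was in windows of Ddit4, Tob1, Tob2 and Btg3 and in 19.6% of all. CCAAT was in 10 of the 11 member windows and in 37.4% of all, and TATAAA in those of Btg1 and Tob1 and in 13.6% of all. The p53 decamer, 1 of the paired elements of a p53 site, was in 1 Sesn1 window and in 8.36% of all. TGATGNAA, an ATF4 motif (3.97% of all), and the CArG box (1.63% of all) were in no member window. A match describes letters in a window and not a bound site.

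Of the 9 genes, 8 passed the filter on low counts of the fit over all 15029 genes, and Btg3 did not. Per length, their order in WT ran over a wide range. Btg2 was far ahead at 51.6 ± 1.76 RPKM (reads scaled to transcript length and mapped reads; SD, n = 2), above 96.7% of the 19837 genes with a read. Sesn1 followed at 6.86 ± 0.0710, then Tob1 at 4.43 ± 0.959 and Tob2 at 4.15 ± 0.357 RPKM, whose libraries overlapped. Sesn2 at 2.45 ± 0.0568 and Sesn3 at 2.30 ± 0.189 RPKM also overlapped, and Ddit4 at 1.44 ± 0.209 and Btg1 at 1.03 ± 0.0685 RPKM came last of the 8. The median gene with a read was at 1.353 RPKM.

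In KO the order was Btg2 at 36.3 ± 3.53, Tob1 at 7.98 ± 0.707, Tob2 at 5.88 ± 0.535, Sesn1 at 4.80 ± 0.135, Ddit4 at 4.29 ± 0.239, Sesn2 at 4.25 ± 0.0712, Sesn3 at 2.85 ± 0.584 and Btg1 at 1.81 ± 0.354 RPKM (SD, n = 2). Btg2 thus remained first and Btg1 last of the 8, while Sesn1 moved from the second place to the fourth and Ddit4 from the seventh to the fifth. The libraries of Ddit4 and Sesn2 overlapped in KO, and those of the other neighbours did not.

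On the scale of CPM with TMM scaling, the WT and KO libraries did not overlap for 7 of the 8 genes, as they did for 65.2% of all tested genes. Past the threshold of the fit over all genes (edgeR quasi-likelihood test, adjusted p under 0.05) lay 5 members that were higher in KO and 2 that were lower, against 11.4% of all genes higher and 9.44% lower, 20.8% together. In bulk RNA, fewer cells of a type and less RNA per cell cannot be told apart. Since the members were chosen on this contrast, nothing is read from these counts. The 5 were Ddit4, Tob1, Btg1, Sesn2 and Tob2 and the 2 were Sesn1 and Btg2. Leaving out WT replicate 1 kept 1 higher and 0 lower members past the threshold, leaving out WT replicate 2 kept 2 and 1, and leaving out KO replicate 2 kept 2 and 0.

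**Figure D1:**
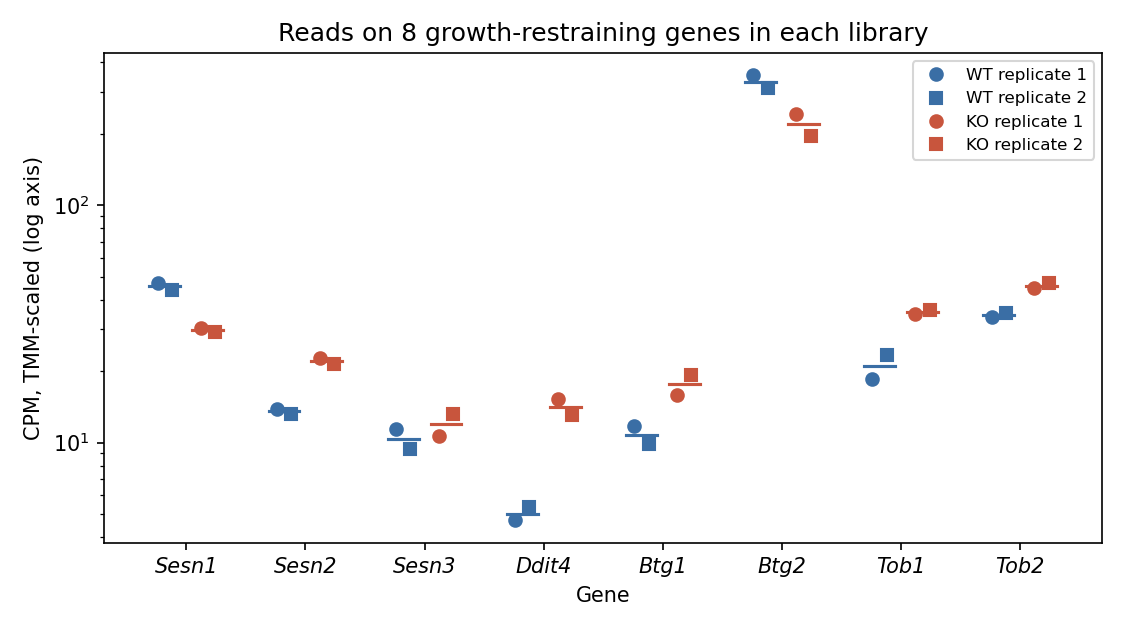
CPM with TMM scaling (log axis) of each of the 8 genes that passed the filter, with 1 point per library and a bar at the mean of each group. Sesn1 and Btg2 lie lower in both KO libraries, Sesn3 overlaps, and the other 5 lie higher in both; Ddit4 is near 5 CPM in WT and near 14 in KO.

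Among the sestrins, Sesn1 (chromosome 10, 41530380 to 41628242, plus strand; the files name no build) was the one that was lower in KO. It was at 46.99 and 44.1 CPM in the WT libraries and at 30.5 and 29.2 CPM in the KO libraries, from 1518, 2449, 1459 and 1499 reads. The groups stood apart by 0.53 on the log2 scale, against at most 0.09 between libraries of a group. The fold change was 0.656 (log2 -0.61, SE 0.11), lower than that of all but 7.9% of tested genes.

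Sesn2 (chromosome 4, 132048722 to 132066371, minus strand), a sestrin that senses leucine, went the other way. It was at 13.9 and 13.2 CPM in WT and at 22.7 and 21.5 CPM in KO, from 448, 736, 1088 and 1100 reads. Both KO libraries were above both WT libraries, and the fold change was 1.63 (log2 0.70, SE 0.13). Sesn3 (chromosome 9, 14080745 to 14130578, plus strand) had 11.4 and 9.38 CPM in WT and 10.7 and 13.2 CPM in KO. Its groups overlapped, with a log2 fold change of 0.21 (SE 0.18) that ranged from 0.05 to 0.35 with 1 library left out.

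The 3 sestrins together had about the same level in every library. Their summed RPKM was 11.7 and 11.6 in WT and 11.3 and 12.5 in KO, a ratio of means of 1.02, and with TMM scaling in place of mapped reads the ratio was 0.959. What differed was the make-up of that sum. Sesn1 made up 58.4% and 59.7% of it in WT and 41.5% and 39.3% in KO, while Sesn2 went from 20.7% and 21.5% to 37.1% and 34.6%. The share of Sesn3 was 20.9% and 18.7% in WT and 21.5% and 26.2% in KO. These shares restate the gene differences above, and the levels of the genes took part in their choice.

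**Figure D2:**
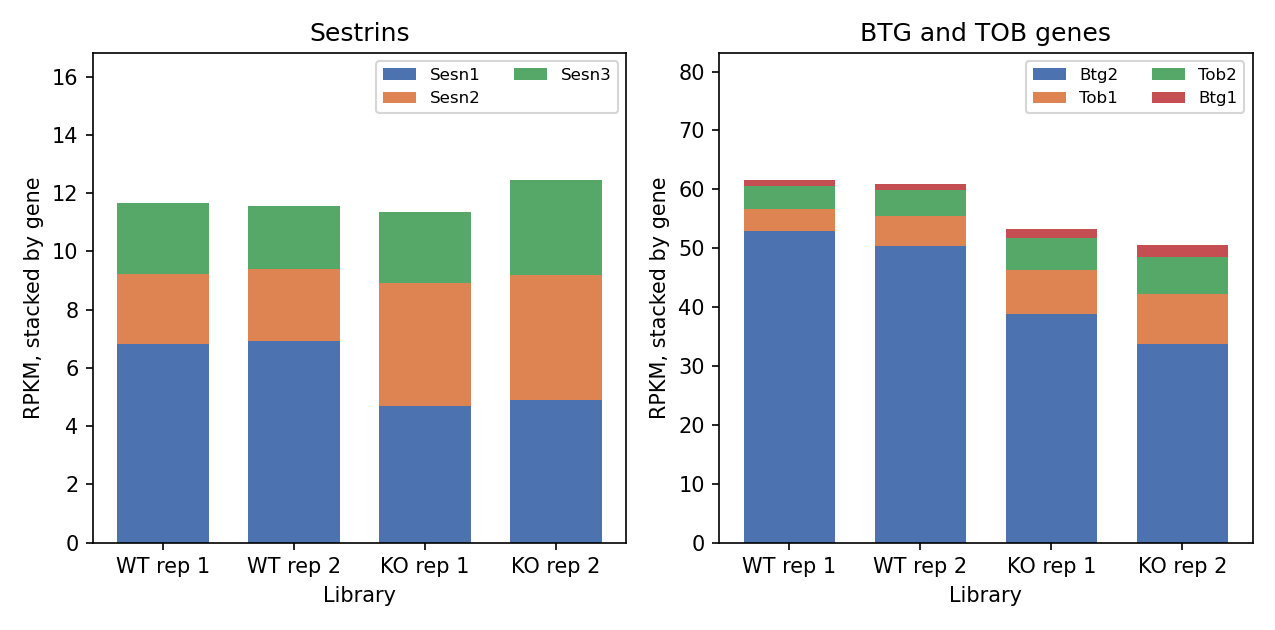
RPKM of the sestrins (left) and of the BTG and TOB genes (right) stacked in each library, the height being the sum over the genes shown. The sestrin bars all end between 11.3 and 12.5 RPKM with a smaller Sesn1 part in KO; the BTG and TOB bars end near 61 in WT and between 50.6 and 53.3 in KO, with a smaller Btg2 part.

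Ddit4 (chromosome 10, 59412423 to 59414518, minus strand) had the largest difference among the members. It was at 4.71 and 5.35 CPM in WT and at 15.3 and 13.03 CPM in KO, from 152, 297, 732 and 668 reads. The lowest KO library was 1.28 above the highest WT library on the log2 scale, against at most 0.23 within a group. The fold change was 2.81 (log2 1.49, SE 0.18), and 98.5% of tested genes had a lower one.

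In the BTG and TOB family, Btg2 (chromosome 1, 135971442 to 135975732, minus strand) was the most abundant and was lower in KO. It was at 353 and 311 CPM in WT and at 243 and 195 CPM in KO, from 11415, 17292, 11650 and 10020 reads. The fold change was 0.660 (log2 -0.60, SE 0.15), and the gap between the groups, 0.36 on the log2 scale, was little more than the 0.32 between the KO libraries. With 1 library left out, its log2 fold change ranged from -0.77 to -0.45.

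The other measured members of the family were higher. Btg1 (chromosome 10, 96079635 to 96085445, plus strand), a gene of quiescent lymphoid and myeloid cells, was at 11.7 and 9.85 CPM in WT and at 15.9 and 19.3 CPM in KO, a fold change of 1.64 (log2 0.71, SE 0.17). Tob1 (chromosome 11, 94072768 to 94076806, plus strand) was at 18.6 and 23.4 CPM in WT and at 34.8 and 36.4 CPM in KO, a fold change of 1.69 (log2 0.76, SE 0.14). Tob2 (chromosome 15, 81678700 to 81688756, minus strand) was at 33.7 and 35.2 CPM in WT and at 44.7 and 46.9 CPM in KO, a fold change of 1.33 (log2 0.41, SE 0.11). In each of these 3 both KO libraries were above both WT libraries; the Tob1 and Btg1 libraries differed within a group by up to 0.33 and 0.28 on the log2 scale, and those of Tob2 by at most 0.07.

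Since Btg2 made up most of the family, the summed RPKM of the family was lower in KO although 3 of its 4 measured genes were higher. The sum was 61.6 and 60.9 RPKM in WT and 53.3 and 50.6 RPKM in KO, a ratio of means of 0.848 (0.796 with TMM scaling). Btg2 made up 85.8% and 82.8% of it in WT and 72.7% and 66.8% in KO. Tob1 went from 6.09% and 8.39% to 14.0% and 16.8%, and Tob2 from 6.32% and 7.23% to 10.3% and 12.4%. As with the sestrins, these shares restate the gene differences above.

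Btg3 (chromosome 16, 78360105 to 78377030, minus strand) had almost no transcript reads, which numbered 0 in each WT library, 1 in KO replicate 1 and 3 in KO replicate 2. A processed pseudogene, Gm7334, lies on chromosome 17 of GRCm38 (50698688 to 50699443) and is identical over all of its 756 bases to bases 217 to 972 of the Btg3 transcript of 1414 bases in GENCODE M21, which leaves the rest of the transcript unshared. The deposited tables place a Gm7334 transcript at the position of Btg3, also with 0, 0, 1 and 3 reads, and they name the splice junctions there after Gm7334. Why the counts were near 0 was not tested, and they do not show that Btg3 was silent. The sequence across the third exon boundary of Btg3 (intron at chr16:78365010-78369112 in GRCm38) is shown because all 40 bases, with the 3′ exon in capitals, also stand unbroken in the pseudogene, so that a short read across it matches both.
Btg3 exon boundary: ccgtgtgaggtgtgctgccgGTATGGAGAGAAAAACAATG
The same holds for 40 bases across the second and the fourth boundary, and the first lies outside the annotated pseudogene. Reads joining the exons at that first boundary numbered 0 and 4 in WT and 3 and 4 in KO, so a few spliced Btg3 reads were present. Known junctions at Btg3 had 18 and 33 reads in WT and 24 and 27 in KO, 3.76 ± 0.0950 and 3.62 ± 0.378 per 1000000 reads on known junctions (SD, n = 2), with overlapping groups.

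No such copy was found for most of the other members. With megablast against all GENCODE M21 transcripts, Sesn1, Sesn2, Sesn3, Ddit4, Btg2 and Tob1 had no match in another gene. Btg1 matched Btg1-ps2 at 87.4% identity over 628 of its 5001 bases, and Tob2 overlapped the antisense gene Gm49476 over 209 of 4151 bases. Counting by strand is not stated, so reads of Gm49476 may be among those of Tob2.

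Reads across known splice junctions are a part of the same libraries and give a second view of these genes, with far fewer reads. Sesn2 had 44 and 97 junction reads over its 9 junctions in WT and 161 and 134 in KO, or 10.1 ± 1.57 against 20.9 ± 2.27 per 1000000 junction reads (SD, n = 2). Ddit4 had 2 and 3 in WT and 22 and 14 in KO over its 2 junctions. For both genes the KO libraries were above the WT libraries, as with the transcript reads. Btg2 had 970 and 1361 reads on its single junction in WT and 1072 and 897 in KO, 178 ± 29.1 against 140 ± 14.6 per 1000000 junction reads, again lower in both KO libraries.

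For Tob1 the transcript reads were higher in KO, while the junction reads showed no clear direction. It had 17 and 26 reads on its 1 junction in WT and 15 and 24 in KO, or 3.25 ± 0.334 against 2.78 ± 0.961 per 1000000 junction reads (SD, n = 2), while its transcript reads were 1.69-fold higher in KO. Over both libraries of each group the junction ratio was 0.869. Its counting interval (exact, 95%) of 0.549 to 1.37 includes 1 and lies under the transcript value. The Tob1 junction groups overlapped, at 3.487 and 3.015 per 1000000 junction reads in WT and 2.098 and 3.457 in KO. Like that of Tob1, the transcript fold changes of Sesn1 and Btg2 lay outside the counting intervals of their junction ratios, but in the same direction. Those of Sesn2 (1.630 against a lower bound of 1.634) and Sesn3 (1.154 against 1.157) all but met the interval. Those of Ddit4, Btg1 and Tob2 lay inside. For Btg2 the junction ratio was 0.809 (0.762 to 0.860) against 0.660 by transcript reads. Junction reads were scaled to all reads on known junctions and transcript reads by TMM, so their ratios are not on the same scale. Where a value lay near a bound, as for Sesn1, Sesn2 and Sesn3, the scale can decide whether it is in or out. Sesn1 had 64 and 205 junction reads in WT and 102 and 129 in KO, a ratio of 0.823 (0.687 to 0.984), and its groups overlapped because the WT libraries differed, at 13.1 and 23.8 per 1000000 junction reads. These intervals cover counting error only and not the spread between mice.

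The remaining members had junction ratios above 1. That of Sesn3 was 1.45 (1.16 to 1.82, 334 reads in all), of Btg1 1.70 (1.31 to 2.22, 258 reads) and of Tob2 1.497 (0.942 to 2.41, 82 reads). Both KO libraries were above both WT libraries for Sesn3 and Tob2 and not for Btg1, with 9.44 and 5.45 per 1000000 junction reads in WT and 8.25 and 15.3 in KO. Unannotated junctions carried almost nothing: 1 read each at Sesn1, Sesn2 and Btg3 over the 4 libraries.

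**Figure D3:**
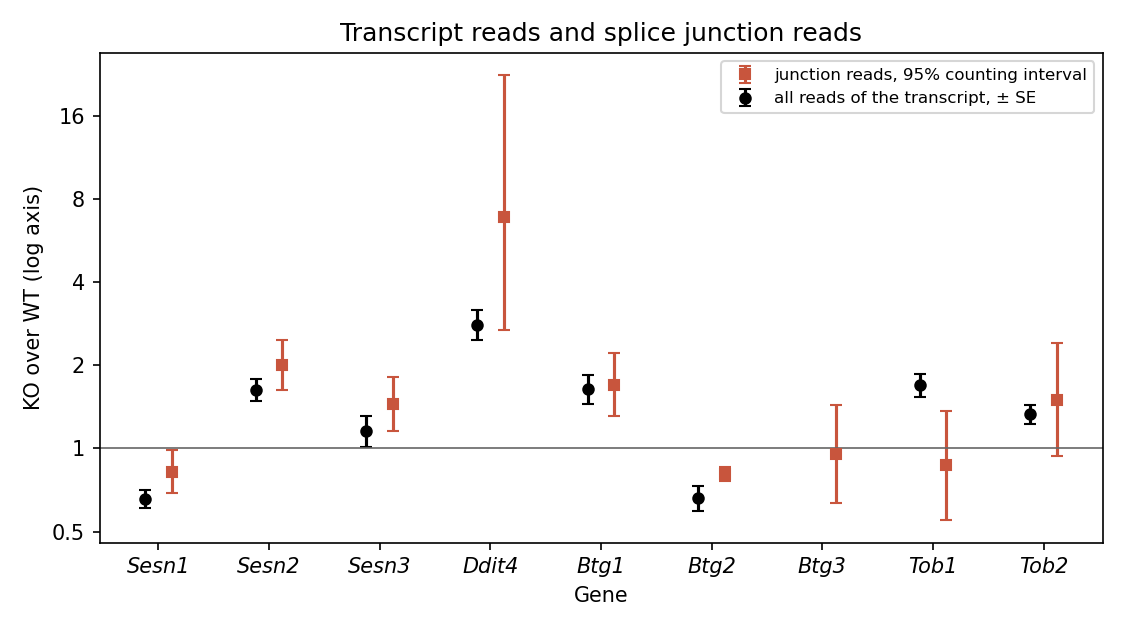
Ratio of KO to WT (log axis) from all reads of a transcript (circles, ± SE) and from reads on its known junctions, pooled per group (squares, with 95% counting intervals). The circles rest on TMM scaling and the squares on scaling to all reads on known junctions. The 2 lie on the same side of 1 for every gene measured both ways except Tob1. Tob1 was at 1.69 by transcript reads and 0.869 by junction reads, with a junction interval that includes 1.

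Sesn1 has 2 RefSeq transcripts that differ in their first exon, and the longer was used above. The first exon of the longer one was joined to the common second exon by 4 reads and that of the shorter one by 32, a share of 11.1% for the longer (exact 95% interval 3.11% to 26.1%). By single library the distal reads were 0, 1, 1 and 2 and the proximal ones 3, 10, 5 and 14, too few to compare the genotypes. The shorter transcript was at 7.78 ± 0.188 RPKM in WT and 5.24 ± 0.262 in KO (SD, n = 2). It had 6349 reads in all against 6925 for the longer. The 2 can share the reads of their common exons, so the shorter is not a separate measurement. The longer had 120 and 149 more reads in WT and 172 and 135 more in KO, before scaling to depth.

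**Figure D4:**
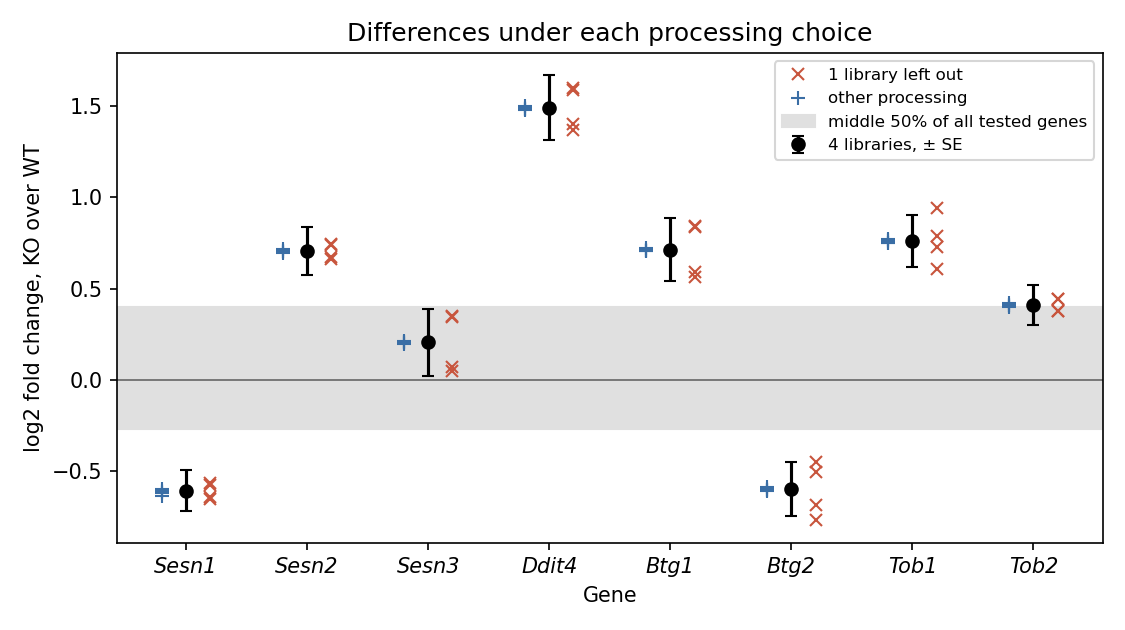
Log2 fold change of KO over WT for each measured gene with all 4 libraries (circle, ± SE), with 1 library left out (crosses) and with other scaling, filter, test, transcript choice or a replicate block (plus signs); the grey band holds the middle 50% of all tested genes. With 2 libraries a group, the sign is all but fixed with 1 left out where the groups do not overlap; the crosses of Sesn3, whose groups overlap, run from 0.05 to 0.35.

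Genes that work with the members or act on them were taken from lists of known roles, 183 symbols in all, of which 180 were tested. The lists were chosen with earlier results of these data known, so their shares are descriptions and not a test of enrichment. Of these, 32 were higher in KO and 14 lower. Set against 20.8% of all tested genes, 18.7% of the listed genes other than p53 targets passed. By list, the share was 6.25% for FOXO targets, 10% for glucocorticoid receptor targets, 11.1% for AMPK and 16.7% for CCR4-NOT and deadenylation. It was 22.2% for ATF4 targets, 27.3% for transcription factors, 28.6% for immediate-early genes, 33.3% for HIF targets and 68% for p53 targets. The median log2 fold change over all genes was 0.02.

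Of 18 genes of the mTORC1 core and the TSC complex, 2 rose and 2 fell, or 22.2% against 20.8% of all tested genes (median log2 fold change -0.14). Tbc1d7, a TSC subunit, rose 1.61-fold and Eif4ebp2, a repressor of translation under mTORC1, 1.42-fold, while Ulk1, a kinase of autophagy, fell to 0.665 and Pdpk1, which activates Akt, to 0.708 of WT. Of 26 genes of the GATOR and Rag arm that carries amino acid signals, 3 fell and 0 rose (11.5%, median -0.13). They were Mios, a GATOR2 subunit (0.710 of WT), Hbxip, the Ragulator subunit now named Lamtor5 (0.671), and the lysosomal arginine sensor Slc38a9 (0.718). Of 9 tested AMPK genes, 1 fell, Prkag1, at 0.745 of WT. The edgeR adjusted p of these 8 genes lay between 0.0226 for Mios and 0.0448 for Slc38a9. None of the 8 calls held with every choice of 1 library left out: 0 genes of the 3 lists passed without KO replicate 2, 1 without WT replicate 1 or WT replicate 2 and 4 without KO replicate 1.

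Of 18 genes of CCR4-NOT and deadenylation, the partners of BTG and TOB proteins, 1 rose and 2 fell (median -0.13). Pabpc1, the main cytoplasmic poly(A)-binding protein, was at 668 and 465 CPM in WT and at 273 and 299 CPM in KO, 0.504 of WT (edgeR adjusted p = 0.0155). Tnks1bp1, a protein bound to CCR4-NOT, rose from 26.7 and 26.2 to 46.4 and 50.96 CPM, 1.84-fold (edgeR adjusted p = 0.00719). The calls of Pabpc1 and Tnks1bp1 held with any 1 library left out. Cnot10, a subunit of the complex, fell to 0.685 of WT, with edgeR adjusted p-values of 0.0144 from all libraries, 0.0567 without WT replicate 2 and 0.0572 without KO replicate 2. The deadenylase subunits that BTG and TOB proteins bind, Cnot7 and Cnot8, named after their values were seen, did not pass.

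Of 11 transcription factors that act on the members, 1 rose and 2 fell (median 0.18). Foxo4 fell to 0.613 of WT (edgeR adjusted p = 0.0107), from 70.9 and 76.5 to 47.7 and 42.6 CPM, and held with any 1 library left out. Atf4, the factor of the integrated stress response, was at 475 and 417 CPM in WT and at 328 and 318 CPM in KO (0.724 of WT, edgeR adjusted p = 0.0455), a call lost whichever library was left out (edgeR adjusted p of 0.0791 to 0.213). Epas1, which encodes HIF-2 alpha, rose 1.54-fold, a call that held only when KO replicate 1 was the library left out (otherwise edgeR adjusted p of 0.0840 to 0.113). Trp53 did not pass (79.1, 133, 161 and 141 CPM, edgeR adjusted p = 0.141), but it passed when WT replicate 2 was left out (0.0201).

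Lists of genes known to answer to these factors, chosen with earlier results of these data known, were uneven. Of 25 p53 targets other than the members, 17 rose and 0 fell (median 0.65; 10 to 12 rose with 1 library left out). Cdkn1a, an inhibitor of cell cycle kinases, rose from a WT mean of 5.96 ± 0.683 CPM to 103 ± 10.1 (SD, n = 2), and Eda2r rose 14.8-fold, Phlda3 4.76-fold and Trp53inp1 3.03-fold. Of the members named above as p53 targets, Sesn2 was higher and Sesn1 and Btg2 were lower in KO. That naming need not be complete. Over all measured members, Ddit4 rose most, 2.81-fold. Of 18 ATF4 targets, 3 rose and 1 fell (median 0.10): Atf5 rose 2.17-fold, the amino acid exchanger gene Slc7a11 1.79-fold and Vldlr 1.69-fold, and Ppp1r15a, which restores translation after stress, fell to 0.703 of WT. Without KO replicate 2 none of these 4 passed.

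Of 15 HIF targets, 3 rose and 2 fell (median 0.10). Ndrg1 rose 2.18-fold (edgeR adjusted p = 0.00755), Pfkfb3 1.49-fold and Vegfa 1.47-fold, while Pdk1 fell to 0.544 and Mxi1, a Myc antagonist, to 0.652 of WT; Pfkfb3 was named after its values were seen. The calls of Ndrg1 and Pdk1 held with any 1 library left out, and without KO replicate 2 they were the only 2. Of 10 glucocorticoid receptor targets, 1 rose, Errfi1, an inhibitor of the EGF receptor, at 1.80-fold (edgeR adjusted p = 0.0112; median 0.24). Of 16 FOXO targets, 1 rose, Irs2, at 1.33-fold, a call lost whichever library was left out (edgeR adjusted p of 0.0753 to 0.136; median -0.04).

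Of 14 tested immediate-early genes, 3 rose and 1 fell (median 0.32). Zfp36, which destabilises messages with AU-rich elements, rose 2.11-fold (edgeR adjusted p = 0.0100), Egr1 1.96-fold and Myc 1.71-fold, and Ier3 fell to 0.521 of WT. The Zfp36 call held with any 1 library left out, and without KO replicate 2 it was the only one. Btg2, which is often counted with these genes, was lower in KO.

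**Figure D5:**
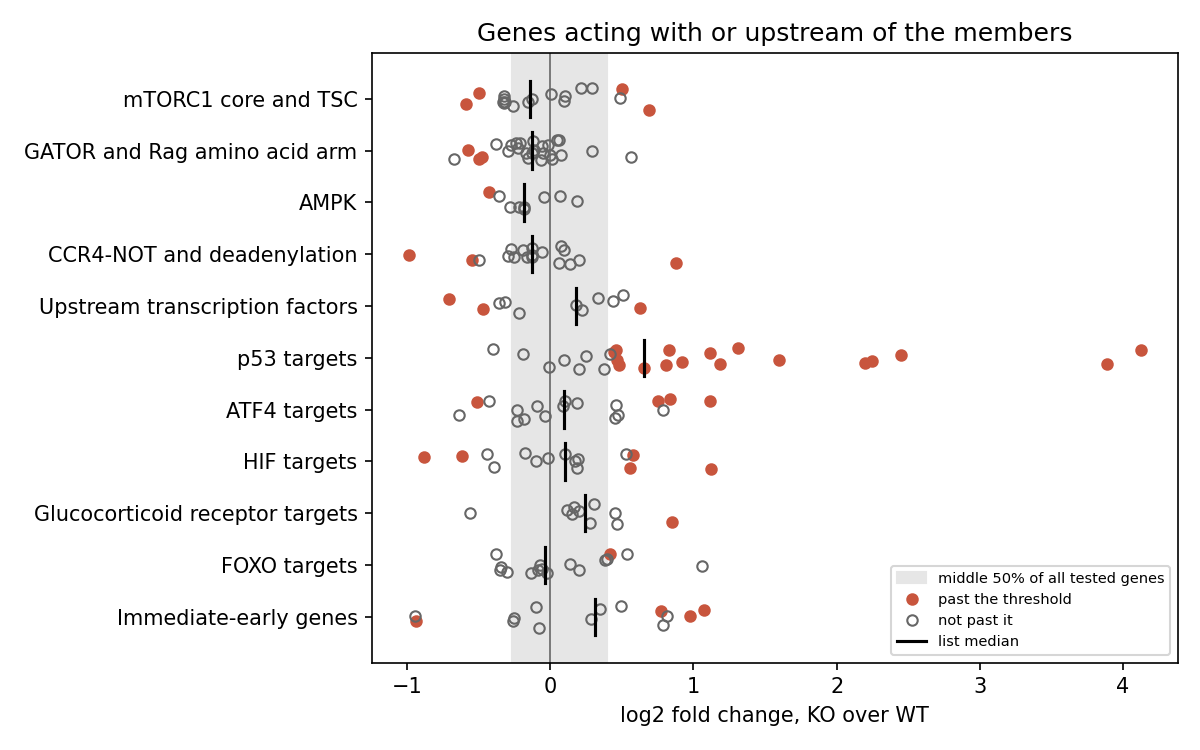
Log2 fold change of KO over WT for each tested gene of 11 lists, filled where it passed the threshold of the fit over all genes, with a black bar at the median of each list and a grey band over the middle 50% of all tested genes. The p53 targets have a median of 0.65; the medians of the other lists lie between -0.18 and 0.32.

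The RNA of markers of several cell types also differed between the genotypes in these libraries. The share past the threshold, 20.8% over all tested genes, was 75% for erythroid, 66.7% for megakaryocyte and endothelial and 100% for cardiac markers. It was 50% for granulocyte, macrophage, hepatocyte and stellate, 40% for B lymphoid and 0% for T and NK markers. Of 8 erythroid markers 6 fell, among them the globin gene Hbb-b1 to 0.457 of WT. Slc4a1 (0.620 of WT, edgeR adjusted p = 0.0634) and the globin gene Hba-a1 (0.681 of WT, edgeR adjusted p = 0.257) did not pass. The summed level of the 8 was 38930 and 35390 CPM in WT and 23250 and 17350 CPM in KO. Of 6 megakaryocyte markers 4 rose (380 and 408 against 789 and 607 CPM summed), of 8 granulocyte markers 4 rose (754 and 630 against 1268 and 967), of 8 hepatocyte markers 4 rose (48950 and 36340 against 75310 and 62520), of 6 endothelial markers 4 rose (468 and 513 against 754 and 798) and of 6 stellate and mesenchymal markers 3 rose (198 and 182 against 234 and 269). All 6 cardiac markers fell (53.7 and 206 against 3.38 and 5.60 CPM summed), of 6 macrophage markers 1 rose and 2 fell, of 5 tested B lymphoid markers 2 fell, and of 2 tested T and NK markers 0 passed. No marker was at 0 in all 4 libraries. With 1 library left out, 3 erythroid markers fell without either WT library, 8 without KO replicate 1 and 2 without KO replicate 2. Endothelial markers that rose numbered 2 without WT replicate 1 or without KO replicate 2, hepatocyte ones 2 without WT replicate 2, and stellate ones 2 whichever library was left out. Of the B lymphoid markers 1 fell without WT replicate 1 or KO replicate 1 and 0 without KO replicate 2, of the granulocyte markers 2 fell without KO replicate 1, and of the macrophage markers 0 rose without WT replicate 2 or without KO replicate 2 and 3 fell without KO replicate 1. All 6 cardiac markers fell whichever library was left out, and 3 to 5 megakaryocyte and 3 to 5 granulocyte markers rose. The part of these differences in the values of the 9 genes was not tested.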

How the data were processed

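Per the file headers, the authors counted reads per RefSeq transcript, taking primary alignments only, with 10 as the lowest mapping quality, 0 as the lowest score and a score clear zone of 5. The deposited tables hold these raw counts, the authors' RPKM, scaled to each library's mapped reads, and reads per nucleotide, a coverage signal that was not used further. Deposited junction tables hold raw read counts per junction. The aligner and genome build are not given in these sources; the coordinates of genes are the files' own.

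The 28283 transcript rows gave 22011 genes, by the transcript with most reads. Reads on these transcripts numbered 33738859 and 56895354 in WT and 47700346 and 48162899 in KO. The main test was edgeR's quasi-likelihood test (edgeR 4.0.16, R 4.3.3; TMM scaling, default filterByExpr, Benjamini-Hochberg adjustment over 15029 genes, threshold 0.05), which was tested on simulated data. Standard errors are the log2 fold change divided by the square root of F. Values are mean ± SD, n = 2. An alternative test was DESeq2 1.42.0. Copies were searched with BLAST+ 2.17.0. Counting intervals are exact binomial ones (Clopper-Pearson).

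The 9 genes and the lists were chosen with earlier results of these data known. Beside the 9, the text names Hnrnpl, Trp53, Cdkn1a, Ddit4l, Btg4 and up to 4 genes per pathway list. The list genes are those with the smallest p among those past the threshold with groups apart. Of the markers, Hbb-b1 and Slc4a1 are named, which had the highest mean CPM of the erythroid list. Hba-a1, Cnot7, Cnot8 and Pfkfb3 are named outside these rules. Of the listed symbols, 7 were matched to an older symbol by accession.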

Additional observations from a re-analysis of the deposited data

How the results depend on the processing

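Alternatives were RLE scaling, no filter, DESeq2, summed transcript rows, a replicate block and each library left out. DESeq2 called 1925 genes higher and 1723 lower over all. Since the members were chosen on this contrast, their calls are given as counts and nothing about stability is read from them. With 1 library left out, members past the threshold numbered 1 to 4 higher and 0 to 2 lower, all genes 648 to 1308 higher and 338 to 1187 lower (1708 and 1419 with 4 libraries), and listed genes 16 to 26 higher and 3 to 12 lower; a lone library was then assumed to vary like the pair. The names of the deposited files share a number between 1 WT and 1 KO library, and what it marks is not given. With that number as a replicate block, which leaves 1 residual degree of freedom, 26 listed genes were lower in place of 14, and members past the threshold stayed at 5 higher and 2 lower. Deviations of same-numbered libraries correlated at 0.136 across genes. Depth limits Ddit4 junctions (41 reads), Tob1 and Tob2 junctions (82 each) and Btg3.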

Other observations

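Of the family genes outside the 9, Ddit4l, the paralog of Ddit4 that also restrains mTORC1, had 2 and 33 reads in WT and 58 and 77 in KO, or 0.0619 and 0.594 CPM against 1.21 and 1.502. Its edgeR adjusted p was 0.0927, which misses the threshold, as it did with RLE scaling (edgeR, 0.0907) and summed transcript rows (edgeR, 0.103). Ddit4l passed with no filter (edgeR adjusted p = 0.0059), with a replicate block (edgeR adjusted p = 0.03285) and in DESeq2 (adjusted p = 0.0492), so its call depends on the setting. Btg4, the oocyte member of the BTG family, had 2 reads and 1 read in the WT libraries and 0 in both KO libraries.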
